A study of Mus musculus with 21 samples.

Results

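The genes that load and present peptides on major histocompatibility complex (MHC) class I and class II molecules were followed in bulk RNA sequencing counts of sorted mouse B cells. The members are every gene of the count table whose symbol starts with H2- (the mouse MHC), plus Cd74, Ciita, B2m, Tap1, Tap2, Tapbp and Tapbpl, which makes 49 of 23337 gene symbols. The rule uses gene names and no measured value, though it was chosen with earlier results of these data known. By role they are 5 class II chain genes (H2-A and H2-E), 5 peptide editor genes (H2-DM and H2-O), 2 class II accessory genes (Cd74 and Ciita), 2 classical class I genes (H2-K1 and H2-D1), 27 nonclassical class I genes (H2-Q, H2-T, H2-M and H2-Bl), 5 class I accessory genes (B2m, Tap1, Tap2, Tapbp and Tapbpl) and 3 other H2 symbols. Of the 49, 32 had enough reads to be tested, and the count of tested members is never the count of all members.

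The study concerns self-reactive B cells of the gut and holds 21 libraries. B cells came from the spleen, from the mesenteric lymph nodes (mLN, the nodes that drain the intestine) and from the Peyer's patches (PP, the organised lymphoid tissue of the gut wall) of C57BL/6 mice aged 8 to 12 weeks. In each tissue HEL neg cells gave 1 pooled library. HEL pos cells gave 3 there, named Pool, 392 and 399, and BCL2 HEL pos cells gave 3, named 922, 926 and 950. The strain, the age and the sorting of cells straight into TRIzol are common to all 9 groups. The labels do not expand HEL or BCL2, do not say what drives BCL2 or in which cells, and do not say whether a numbered library is 1 mouse. The p-values thus set differences against the spread among libraries. How far that is a spread among mice is not stated. In HEL pos cells the Pool and the numbered libraries differ in Y-linked transcripts, as given below.

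MHC class II molecules are pairs of an alpha and a beta chain that carry peptides from the endosome to the cell surface, where helper T cells read them. The invariant chain (Cd74) fills the groove until H2-DM removes its last fragment, and H2-O, which B cells make, holds H2-DM back. Ciita is the coactivator without which class II genes stay silent. It has no DNA-binding part of its own and docks on the RFX complex at the X box and on NF-Y at the Y box of class II promoters. Class I molecules pair a heavy chain with B2m and receive cytosolic peptides through the Tap1 and Tap2 transporter, with tapasin (Tapbp) holding them in the loading complex. C57BL/6 mice do not express the H2-E alpha chain, so their H2-E beta chain genes lack a partner, and the table lists the alpha gene as the pseudogene H2-Ea-ps.

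Library totals ran from 5475131 to 11340876 counts. The B cell genes Cd79a and Cd79b, which encode the signalling chains of the B cell receptor, stood at 4013 to 7858 and 2017 to 5513 CPM (counts scaled to a library total of 1000000), and Ms4a1 and Pax5 at 1432 to 4671 and 59.7 to 165 CPM, over the 21 libraries. By contrast 14 markers of dendritic cells, monocytes and macrophages, which also express class II, summed to 14.4 to 96.4 CPM. Cd14 was at 0 in 6 of the 9 groups, but at most 3 of the 14 were at 0 in any group. The highest single values were 36.2 CPM for Siglech and 24.3 CPM for Lyz2. Epithelial transcripts of the gut (7 enterocyte markers) summed to 889 CPM in PP HEL neg cells, 212 to 779 CPM in PP HEL pos cells and 12.3 to 128 CPM in PP BCL2 HEL pos cells, against 3.34 to 35.0 CPM outside the PP. Outside the PP most of the sum was Epcam. Without Epcam the sums were 0 to 2.60 CPM there and 8.10 to 117 CPM in PP BCL2 HEL pos cells. Summed Y-linked transcripts did not exceed 0.869 CPM where the library was HEL pos 392 or 399, and elsewhere lay at 92.3 to 168 CPM. The BCL2 HEL pos libraries, which all held Y-linked transcripts, also held the X-linked transcript Xist at 142 to 278 CPM. In each tissue 2 of the 3 HEL pos libraries thus had at most 0.869 CPM, so the BCL2 comparisons differ in Y-linked transcripts too. The part of these markers in the results was not tested.

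Most members lie together. Of 45 members found in the GENCODE M21 annotation (build mm10, also called GRCm38), 41 are on chromosome 17, between positions 33915899 and 37483552. Of 34 members with a promoter in RefSeq (GRCm38.p6, 250 bases before to 50 after the start site), 4 hold AGCAAC, the core of the X box, followed on the same strand and 15 to 45 bases further by ATTGG, the core of the Y box. These are H2-Eb1, H2-Eb2, H2-Oa and H2-Ob, all class II genes. Their Y box cores start 59, 100, 43 and 57 bases before the annotated start site in that order. The same arrangement, on either strand, is in 154 of 32851 promoters of this length (0.469%), while AGCAAC alone is in 14.8% and ATTGG alone in 37.4%, both strands counted. The spacing was set after these promoters had been read, so the counts are a description. The windows below are those of the 4 genes and of H2-Aa, whose promoter has ATTGG and not AGCAAC. They are shown because they hold these cores in class II genes called in 1 or more comparisons, H2-Eb2 in the most, and capitals mark both cores.
H2-Eb1, chr17:34305733-34305832, plus strand: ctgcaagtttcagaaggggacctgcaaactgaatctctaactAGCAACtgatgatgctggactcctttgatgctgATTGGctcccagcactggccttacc
H2-Eb2, chr17:34325500-34325599, plus strand: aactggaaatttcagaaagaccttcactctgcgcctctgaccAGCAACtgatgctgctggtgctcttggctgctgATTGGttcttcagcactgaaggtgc
H2-Oa, chr17:34092261-34092360, plus strand: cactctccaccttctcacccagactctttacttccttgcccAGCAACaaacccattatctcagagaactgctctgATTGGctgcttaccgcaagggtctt
H2-Ob, chr17:34238773-34238872, plus strand: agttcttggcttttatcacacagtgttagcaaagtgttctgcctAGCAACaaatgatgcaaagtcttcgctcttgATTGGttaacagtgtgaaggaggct
H2-Aa, chr17:34287847-34287946, minus strand: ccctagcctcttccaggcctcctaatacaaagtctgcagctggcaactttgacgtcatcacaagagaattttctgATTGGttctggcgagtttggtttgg
Between the cores lie 27 bases in H2-Eb1 and in H2-Eb2, 28 in H2-Oa and 25 in H2-Ob.

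Presentation genes took up a large share of these libraries. The 49 members made up 5.56% to 8.90% of all counts of a library, and Cd74, H2-Aa, H2-Ab1 and H2-Eb1 alone 3.73% to 6.43%. Per kilobase of the principal transcript, Cd74 had the highest median level over the 21 libraries, at 13263 CPM per kilobase. H2-Aa followed with 8309, H2-Ab1 with 7733 and B2m with 7610 CPM per kilobase, and the ranges of these 3 genes over libraries overlap. The editors stood lower, from 218 CPM per kilobase for H2-DMb1 to 532 for H2-DMb2. H2-Eb1 had a median of 4126 CPM per kilobase, and its neighbour H2-Eb2 99.6, with a range of 35.1 to 230. Of the class I heavy chains, H2-K1 had a median of 2012 and H2-D1 of 1618 CPM per kilobase, with overlapping ranges. H2-T23, which encodes the nonclassical molecule Qa-1, had 472. Reads of the H2-K, H2-D, H2-Q and H2-T genes can match near-identical copies, so the level of each of these genes is uncertain. H2-Q7 and H2-Q9 were listed at 0 counts in all 21 libraries beside counts for H2-Q6 and H2-Q8.

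The first question was whether HEL pos cells of the gut tissues differ from those of the spleen. A gene is called where its adjusted p (edgeR quasi-likelihood test, two-sided, Benjamini-Hochberg over 11419 genes) is under 0.05. Between PP and spleen, 5 of 32 tested members rose (7.94% of all genes tested did) and 2 fell (7.43%). The 5 include H2-Q1, which passed the low-count filter only through the PP HEL pos libraries. In the class II pathway H2-Eb2 and Ciita rose, and none of the other 9 tested members was called. With the library number fitted as a block more members were called between these tissues, as given in the closing section. In bulk samples, fewer cells of a type and less RNA per cell cannot be told apart.

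H2-Eb2 separated the tissues. Levels of members are CPM with totals scaled between libraries. In the Pool, 392 and 399 libraries of HEL pos cells, H2-Eb2 stood at 150, 119 and 149 CPM in the spleen, at 219, 216 and 230 CPM in the mLN, and at 338, 492 and 394 CPM in the PP. The spleen was lowest, the mLN lay between and the PP was highest, with no overlap between tissues. The log2 fold change from spleen to PP was 1.58 ± 0.16 (SE), with an adjusted p of 2.86e-06. From spleen to mLN it was 0.67 ± 0.16 (adjusted p = 0.00376), and from mLN to PP 0.91 ± 0.16 (adjusted p = 0.00164). These 3 comparisons share libraries, and the call held in each alternative run for each of them. H2-Eb1, which lies beside it on the chromosome, stood at 5840, 5344 and 6883 CPM in the spleen and at 5369, 6887 and 6349 CPM in the PP. Those groups overlap, and the fold change of H2-Eb1 was 0.08 ± 0.13 (adjusted p = 0.755). As a share of H2-Eb1 counts, H2-Eb2 made 0.0216 to 0.0257 in spleen, 0.0349 to 0.0397 in mLN and 0.0621 to 0.0714 in PP HEL pos cells.

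Ciita stood at 548, 429 and 488 CPM in the spleen, 596, 538 and 621 CPM in the mLN and 743, 779 and 612 CPM in the PP. All PP libraries were above all spleen libraries, and the mLN overlapped both. From spleen to PP, Ciita rose by 0.58 ± 0.14 on the log2 scale (adjusted p = 0.00644), a call that held in all 12 alternatives, while the fold change to the mLN was 0.26 ± 0.14 (adjusted p = 0.181). For the abundant class II genes the PP minus spleen log2 values were 0.18 ± 0.14 for H2-Aa, 0.09 ± 0.15 for H2-Ab1 and -0.20 ± 0.15 for Cd74, none of them called.

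**Figure D1:**
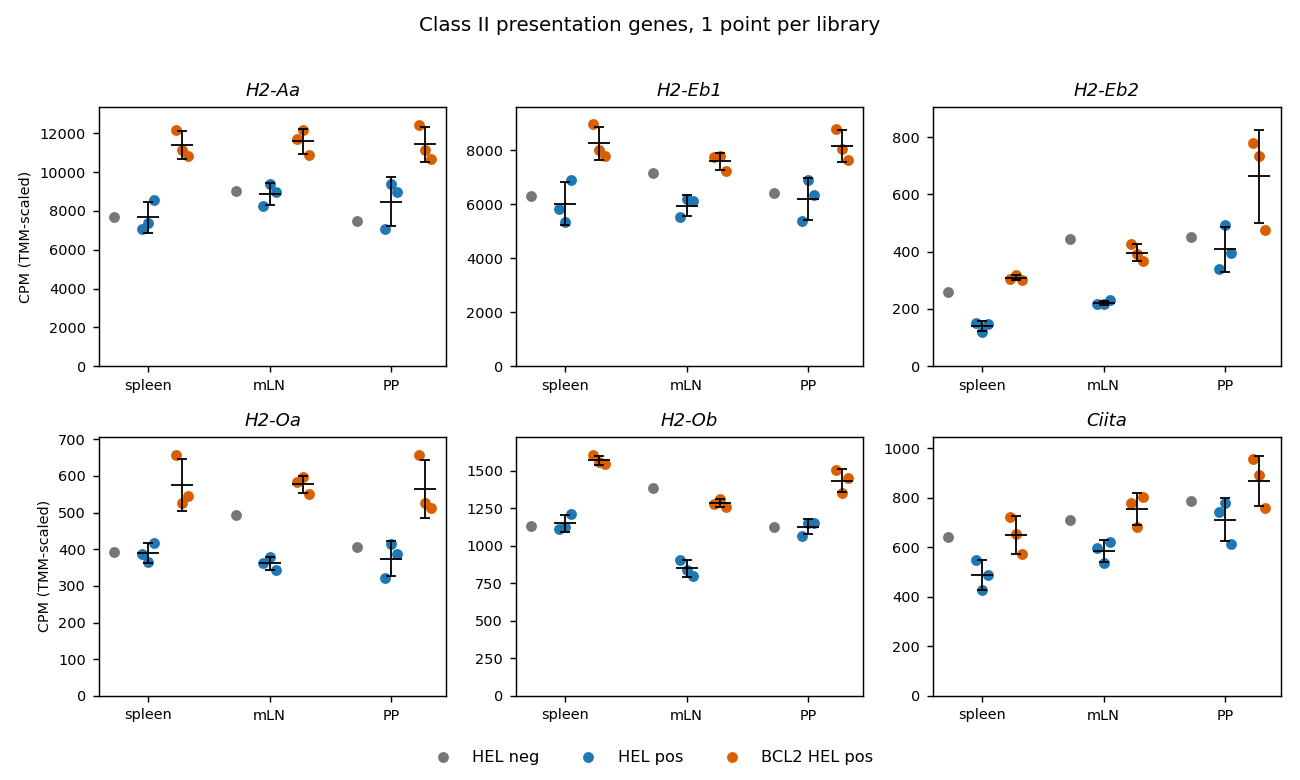
Levels of 6 class II presentation genes in CPM (y axis, linear, from 0) by tissue and cell group. Each point is 1 library, and bars give the mean and SD of the groups with 3 libraries. H2-Eb2 in HEL pos cells goes from 119 to 150 CPM in the spleen to 338 to 492 CPM in the PP, and the BCL2 HEL pos libraries of H2-Oa lie above the HEL pos libraries in every tissue.

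Of the 5 peptide editor genes, 2 were called between mLN and spleen, H2-Ob and H2-DMa, both lower in mLN (11.5% of all genes tested were lower and 12.9% higher). H2-Ob, the beta chain of H2-O, stood at 1111, 1126 and 1212 CPM in spleen, 908, 841 and 800 CPM in mLN and 1068, 1155 and 1155 CPM in PP HEL pos cells. The mLN libraries were below all libraries of both other tissues. H2-Ob was lower in mLN than in spleen by -0.43 ± 0.11 (adjusted p = 0.00495) and higher in PP than in mLN by 0.44 ± 0.11 (adjusted p = 0.0151). The second call was lost without the mLN library 392 (adjusted p = 0.0686), the mLN library 399 (0.0762), the PP library 399 (0.0510), the PP libraries 399 and Pool together (0.111) or the low-count filter (0.0809). H2-Oa, the alpha chain, was not called between any tissues, with fold changes of -0.02 ± 0.13, -0.11 ± 0.13 and 0.08 ± 0.13 for PP against spleen, mLN against spleen and PP against mLN. H2-DMa, the alpha chain of H2-DM, stood at 645, 621 and 716 CPM in spleen and 478, 484 and 455 CPM in mLN. These groups do not overlap, and H2-DMa fell by -0.48 ± 0.12 (adjusted p = 0.0065), a call kept in every alternative. Neither of the beta chain genes was called between spleen and mLN, with values of -0.11 ± 0.14 for H2-DMb1 and -0.33 ± 0.14 for H2-DMb2.

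Of the classical class I genes, H2-D1 was lower in both gut tissues. It stood at 4583, 3645 and 4093 CPM in spleen, 3088, 2777 and 2462 CPM in mLN and 2728, 2687 and 2341 CPM in PP HEL pos cells. Every mLN and PP library was below every spleen library. H2-D1 fell by -0.63 ± 0.15 from spleen to PP (adjusted p = 0.00622) and by -0.56 ± 0.15 from spleen to mLN (adjusted p = 0.00809). The first call was lost without the PP libraries 399 and Pool together (adjusted p = 0.121) and the second without the mLN library 399 (0.0530). H2-K1 stood at 3917, 2812 and 3646 CPM in spleen, 3069, 2690 and 2453 CPM in mLN and 2720, 2486 and 2222 CPM in PP. The PP libraries were below the spleen libraries, but the fold change of -0.45 ± 0.15 missed the threshold (adjusted p = 0.0558), as did that of -0.34 ± 0.15 for mLN (adjusted p = 0.124).

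The class I accessory genes went separate ways. Tap1, a subunit of the peptide transporter, stood at 386, 426 and 430 CPM in spleen and 293, 336 and 238 CPM in PP. Without overlap, it fell by -0.48 ± 0.13 (adjusted p = 0.011), a call lost without the PP library 399 (adjusted p = 0.0676). Tapbp stood at 830, 806 and 772 CPM in spleen, 1149, 1423 and 1385 CPM in mLN and 794, 911 and 649 CPM in PP HEL pos cells. The mLN was above both other tissues in every library. Tapbp rose by 0.72 ± 0.14 from spleen to mLN (adjusted p = 0.000437), which held in each of the 11 alternatives. From mLN to PP it fell by -0.72 ± 0.14 (adjusted p = 0.00256), a call lost without the PP libraries 399 and Pool together (0.153). B2m, Tap2 and Tapbpl were not called between tissues. For B2m, spleen libraries stood at 6708, 6388 and 7924 CPM and PP libraries at 4767, 5832 and 6221 CPM, a fold change of -0.29 ± 0.14 (adjusted p = 0.192).

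From spleen to mLN 3 of 32 tested members rose (12.9% of all genes tested did) and 9 fell (11.5%). Besides H2-Eb2 and Tapbp, H2-Ke2 rose by 0.45 ± 0.15 (adjusted p = 0.0308). The 9 that fell were H2-DMa, H2-Ob, H2-D1, the nonclassical class I genes H2-Q4 (-0.55 ± 0.13), H2-Q6 (-0.50 ± 0.15), H2-M3 (-0.42 ± 0.13) and H2-T10 (-0.48 ± 0.16), and the H2 symbols H2-K2 (-0.62 ± 0.15), a pseudogene of the H2-K type, and H2-Ke6 (-0.60 ± 0.16). The median over the 32 tested members was -0.16 on the log2 scale, against -0.01 over all genes tested. H2-DMa, H2-Eb2, H2-K2, H2-Ke6, H2-Ob, H2-Q4 and Tapbp were called in each of the 11 alternatives. H2-M3 was lost without the mLN library 392 (adjusted p = 0.102), the spleen library 399 (0.0562) or the mLN library 399 (0.0873), and H2-Q6 without the spleen Pool (0.110), the mLN library 392 (0.0511) or the mLN library 399 (0.0985). H2-T10 and H2-Ke2 were lost without the low-count filter (adjusted p = 0.132 and 0.108), without the 3 pooled libraries and when any of 4 single libraries was left out. H2-M3 presents formylated peptides. H2-Ke2 and H2-Ke6 lie among the MHC genes and encode no MHC chain. The B cell genes were lower in mLN HEL pos cells as well. Cd79a stood at 7329, 7754 and 7858 CPM in spleen and 4254, 4606 and 4013 CPM in mLN, and Ms4a1 at 4308, 4538 and 4671 CPM in spleen and 1472, 1766 and 1527 CPM in mLN, with no overlap. Their part in the results was not tested.

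**Figure D2:**
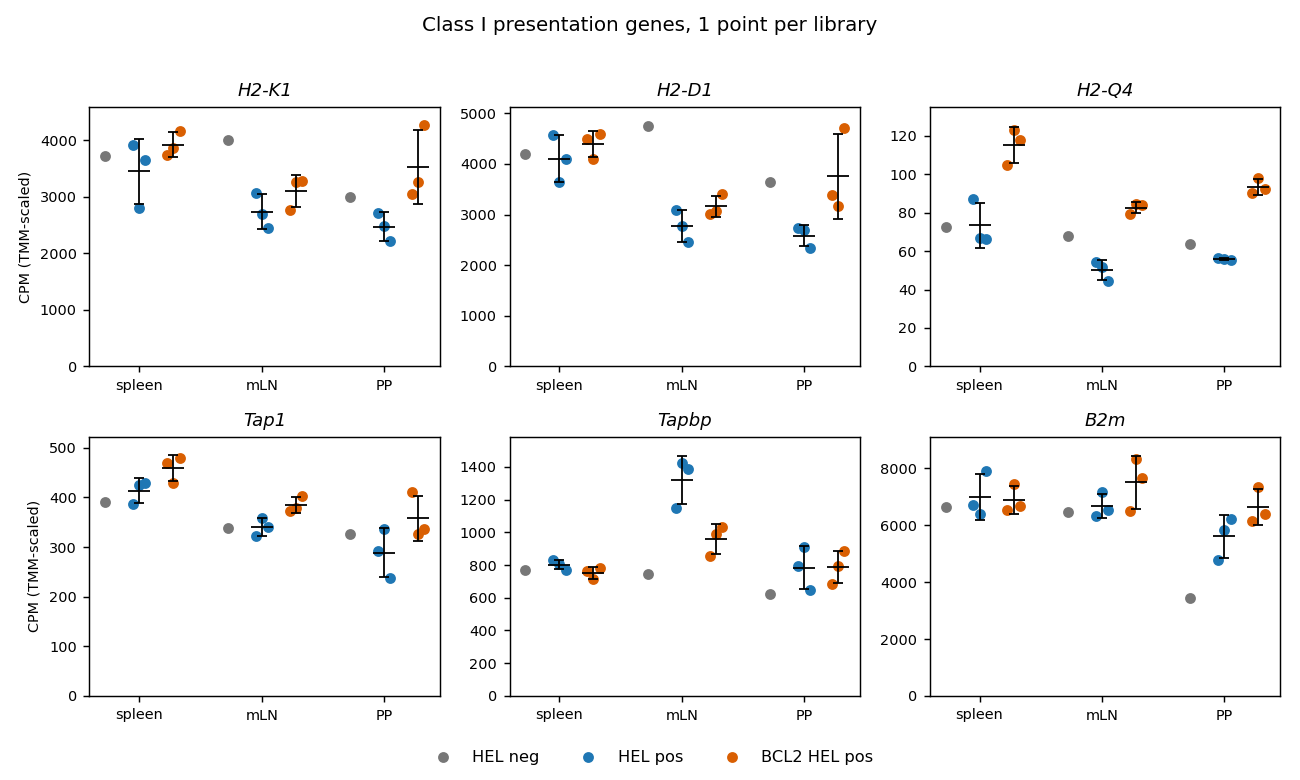
Levels of 6 class I presentation genes in CPM (y axis, linear, from 0) by tissue and cell group, with 1 point per library and the mean and SD of the groups with 3 libraries. H2-D1 in HEL pos cells is lower in mLN and PP than in the spleen, and Tapbp in mLN HEL pos cells, at 1149 to 1423 CPM, lies above the other groups.

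The other genes of the presentation pathway, 26 of a list of 29 that the table holds, moved as follows in HEL pos cells. From spleen to PP, 1 rose and 4 fell (7.94% and 7.43% of all genes tested). Calr (calreticulin, a chaperone of the loading complex) rose by 0.59 ± 0.15 (adjusted p = 0.00948). The immunoproteasome subunits Psmb9 and Psmb10 fell by -0.53 ± 0.10 (adjusted p = 0.00148) and -0.56 ± 0.15 (adjusted p = 0.014), and the endosomal enzymes Ctss and Ifi30 by -0.40 ± 0.12 (adjusted p = 0.0311) and -0.63 ± 0.18 (adjusted p = 0.0209). From spleen to mLN, 9 rose and 4 fell (12.9% and 11.5% of all genes tested). Ifi30, a lysosomal thiol reductase that opens disulfide bonds of antigens, fell from 1483 ± 173 to 294 ± 45.6 CPM (SD, n = 3), a log2 change of -2.33 ± 0.19 (adjusted p = 2.51e-08). Calr rose by 1.06 ± 0.15, the chaperone Canx by 0.82 ± 0.15 and the protease Ctsb by 1.07 ± 0.17, while Psmb10 fell by -0.83 ± 0.15 and Nfyb, a subunit of NF-Y, by -0.61 ± 0.13, with adjusted p-values up to 0.00136.

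Between PP and mLN HEL pos cells, 5 of 32 tested members were higher in PP (5.34% of all genes tested were) and 1 was lower (3.52%). H2-Eb2, H2-Ob and Tapbp are given above, and the other 3 are H2-Q1, H2-Q2 and H2-T3. Of these, H2-Q1 passed the low-count filter only through the PP HEL pos libraries. The count of members called went from 6 to 2 without the mLN library 392, to 3 without the mLN library 399 or the PP library 399, and to 1, H2-Eb2, without the PP libraries 399 and Pool. In the pathway list 2 genes were higher in PP, Ifi30 by 1.70 ± 0.19 (adjusted p = 3.22e-05) and Nfyb by 0.56 ± 0.13 (adjusted p = 0.0104). Lower in PP were Ctsb by -1.10 ± 0.17, Ctsd by -0.63 ± 0.13, Pdia3 by -0.65 ± 0.20 and Calr by -0.48 ± 0.15, with adjusted p-values up to 0.0471.

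H2-Q1, H2-Q2 and H2-T3 are rare nonclassical class I transcripts. H2-T3 encodes the thymus leukaemia antigen, which epithelial cells of the small intestine are known to display. H2-Q1 stood at 5.99, 2.70 and 4.05 CPM in PP HEL pos cells (Pool, 392 and 399) and at 0.683, 0.155 and 0 CPM in spleen. H2-T3 stood at 2.43, 1.95 and 4.56 CPM in PP and at 0.569, 0.465 and 0.737 CPM in spleen. The PP libraries lay above the spleen libraries for both genes. For H2-Q2, at 7.70, 2.40 and 7.43 CPM in PP and 2.51, 2.01 and 2.06 CPM in spleen, the groups overlapped. The fitted log2 fold changes were 3.79 ± 0.88 for H2-Q1 (adjusted p = 0.0055), 2.34 ± 0.66 for H2-T3 (adjusted p = 0.0182) and 1.44 ± 0.48 for H2-Q2 (adjusted p = 0.0432). With so few counts in the spleen, the sizes for H2-Q1 and H2-T3 are uncertain and can depend on the prior count of the fit. H2-Q1 passed the low-count filter through 3 of 18 libraries, those of PP HEL pos cells, so it could be tested only because that group was high. H2-T3 passed through 8, among them BCL2 HEL pos libraries of spleen and mLN.

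The enterocyte sums stand beside these 3 genes as follows. The PP HEL neg pool had the highest enterocyte sum (889 CPM) and the highest levels, with H2-Q1 at 6.71, H2-Q2 at 12.6 and H2-T3 at 5.53 CPM. In PP HEL pos cells the sums were 647, 212 and 779 CPM in the Pool, 392 and 399, and the library 392 had the lowest level of each gene. In PP BCL2 HEL pos cells, with sums of 12.3, 84.1 and 128 CPM, H2-Q1 stood at 0.255, 0.682 and 0.691 CPM and H2-T3 at 1.02, 0.546 and 1.38 CPM, all below every PP HEL pos library. H2-Q2 did not follow this order, with 3.96, 4.77 and 3.89 CPM in PP BCL2 HEL pos cells, all above the 2.40 CPM of the PP HEL pos library 392. Outside the PP, the spleen BCL2 HEL pos library 926 stood at 4.17 CPM for H2-Q2 and 2.08 CPM for H2-T3. Its enterocyte sum was 4.55 CPM, or 0.228 CPM without Epcam. The part of these transcripts in the results was not tested. Without the PP libraries 399 and Pool, the calls against spleen were lost for H2-Q1 (3.12, adjusted p = 0.107), H2-T3 (1.72, adjusted p = 0.261) and H2-Q2 (0.15, adjusted p = 0.924). H2-T3 and H2-Q2 were also lost when any of 3 and 5 single libraries was left out, the PP library 399 among them (adjusted p = 0.0828 and 0.132). Against mLN the fold changes in PP were 3.40 ± 0.85 for H2-Q1 (adjusted p = 0.0171), 2.25 ± 0.64 for H2-T3 (0.0331) and 1.99 ± 0.49 for H2-Q2 (0.0149). Those calls were lost without the PP libraries 399 and Pool (adjusted p = 0.209, 0.361 and 0.640).

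**Figure D3:**
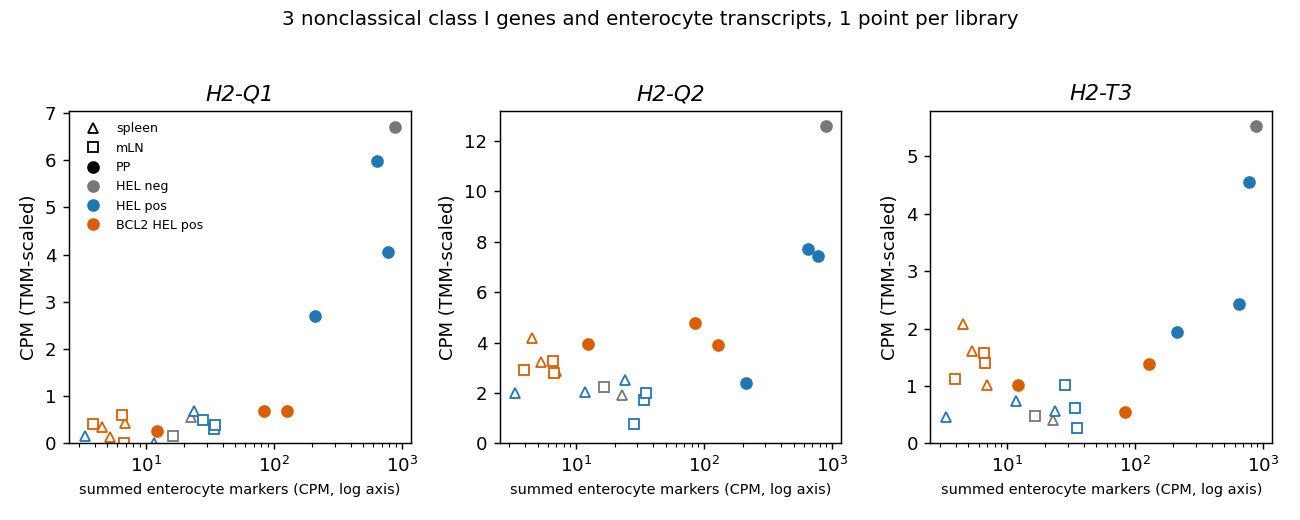
CPM of H2-Q1, H2-Q2 and H2-T3 (y axes, linear, from 0) against the summed CPM of 7 enterocyte markers (x axis, log scale), with 1 point per library, shape by tissue and colour by cell group. The 4 PP libraries of HEL neg and HEL pos cells lie at enterocyte sums of 212 CPM and above, and hold the highest H2-Q1 levels, 2.70 to 6.71 CPM.

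BCL2 HEL pos cells were set against each other by tissue next. From spleen to PP 1 of 32 tested members rose (4.81% of all genes tested did) and 0 fell in edgeR's test (2.53%; 7 members passed an unadjusted p under 0.05 in either direction, and DESeq2 called 2 higher and 1 lower). The gene that rose was H2-Eb2 again. With the library number fitted as a block more members were called, as given in the closing section. In the libraries 922, 926 and 950, H2-Eb2 stood at 306, 318 and 302 CPM in spleen, 428, 393 and 369 CPM in mLN and 779, 734 and 477 CPM in PP. The order of the tissues was that of HEL pos cells, again with no overlap. H2-Eb2 rose by 1.09 ± 0.16 from spleen to PP (adjusted p = 0.000186), which held in all 10 alternatives. The change from spleen to mLN was 0.35 ± 0.16 (adjusted p = 0.186). H2-Eb2 was the 1 member called between PP and mLN, where it was higher by 0.73 ± 0.16 (adjusted p = 0.0247), against 0.806% of all genes tested that were higher in PP and 0.350% that were lower. DESeq2 also called 1 member, and 5 passed an unadjusted p under 0.05 with edgeR. That call was lost without the PP library 922 (adjusted p = 0.106), the PP library 926 (0.104), the mLN library 926 (0.128) or the mLN library 950 (0.136).

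From spleen to mLN of BCL2 HEL pos cells, 0 of 32 tested members rose in edgeR's test (5.77% of all genes tested did; 13 members passed an unadjusted p under 0.05 in either direction, and DESeq2 called 0 higher and 7 lower) and 4 fell (4.23%). The count of 4 was higher with the library number fitted as a block, as given in the closing section. It went to 1 without the spleen library 926, the mLN library 926 or the spleen library 950, and to 2 without the mLN library 922. H2-D1 stood at 4485, 4096 and 4597 CPM in spleen and 3018, 3072 and 3400 CPM in mLN. It fell by -0.48 ± 0.15 (adjusted p = 0.0454), a call lost when any of the 6 libraries was left out (adjusted p = 0.0673 to 0.167). H2-Q4 fell by -0.49 ± 0.12, H2-Q6 by -0.56 ± 0.15 and H2-K2 by -0.64 ± 0.15, with adjusted p-values of 0.0146, 0.0165 and 0.00729. H2-K2 was lost without the spleen library 926 (adjusted p = 0.0564), H2-Q4 when any of 4 libraries was left out and H2-Q6 when any of 3 was. All 4 genes were also called lower in mLN than in spleen among HEL pos cells. Ciita, at 722, 654 and 572 CPM in spleen and 956, 892 and 757 CPM in PP, did not overlap between these tissues and missed the threshold (0.41 ± 0.14, adjusted p = 0.0807).

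In the pathway list, 4 genes rose and 3 fell from spleen to PP in BCL2 HEL pos cells (4.81% and 2.53% of all genes tested). Among them Canx rose by 0.66 ± 0.15, Irf8 by 0.48 ± 0.13 and Calr by 0.53 ± 0.15, and Irf1, a transcription factor of interferon responses, fell by -0.66 ± 0.17, with adjusted p-values up to 0.0324. From spleen to mLN 7 rose and 2 fell (5.77% and 4.23%). Ctsb rose by 0.93 ± 0.17 (adjusted p = 0.00139) and Ifi30 fell by -1.03 ± 0.18 (adjusted p = 0.000942). Between PP and mLN Ifi30 was called, higher in PP by 1.21 ± 0.18 (adjusted p = 0.00201).

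**Figure D4:**
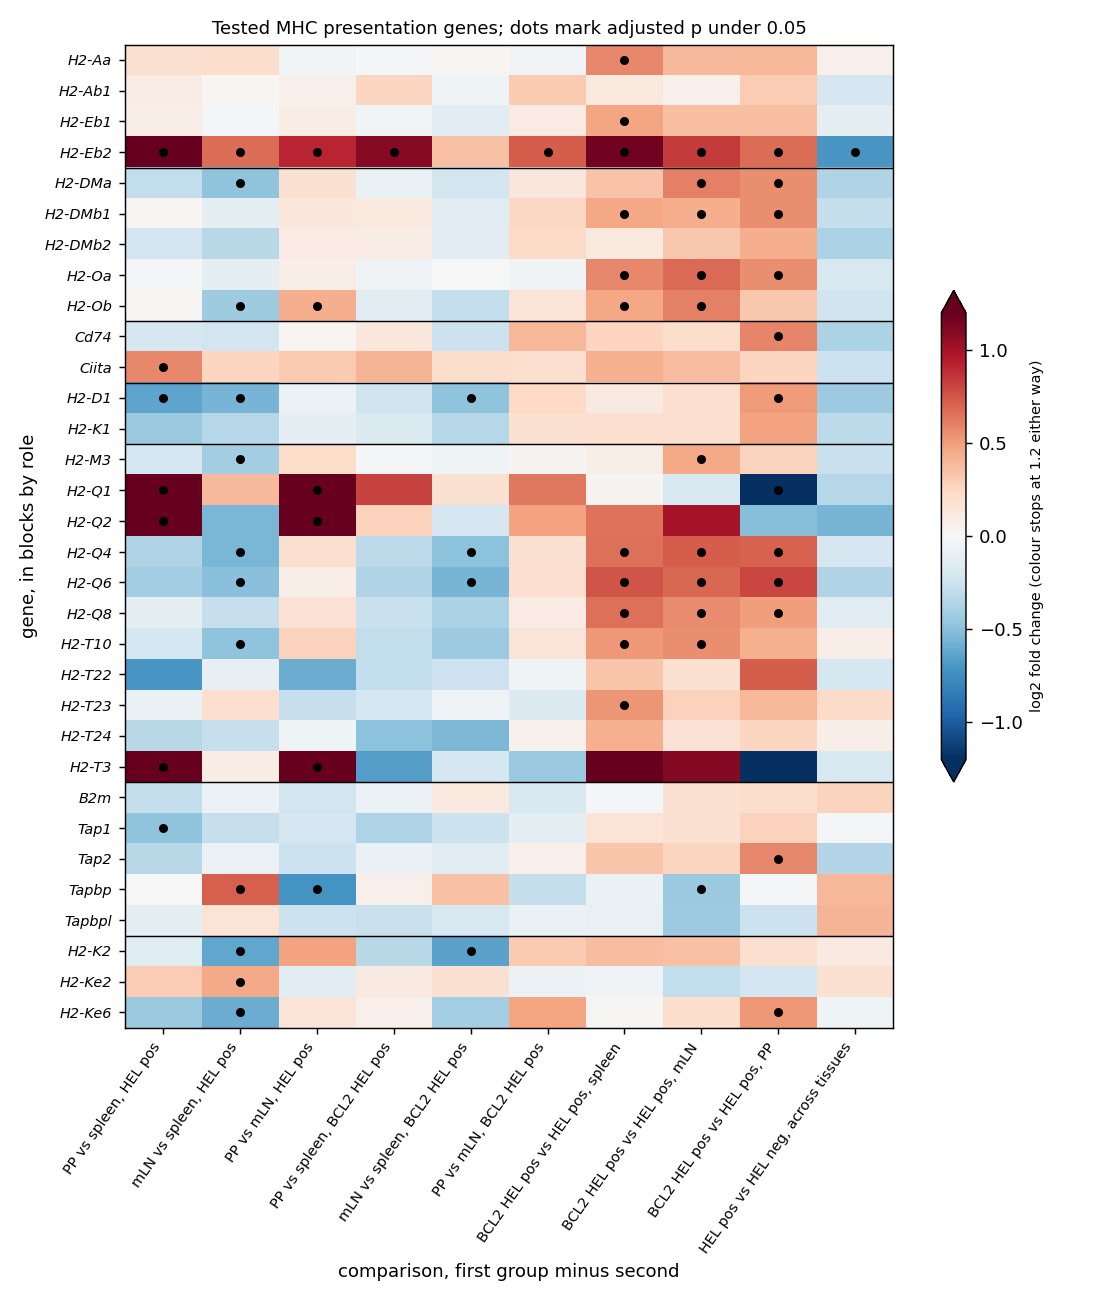
Log2 fold changes (colour, first group minus second, which stops at 1.2 in either direction) of the 32 tested members (rows, in blocks by role) in 10 comparisons (columns). Dots mark an adjusted p under 0.05. H2-Eb2 has a dot in 9 columns, and the 3 columns of BCL2 HEL pos against HEL pos cells are mostly above 0.

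The second question was what differs in cells that carry the BCL2 label. In each tissue more members were called higher in BCL2 HEL pos than in HEL pos cells than were called lower. In the spleen 11 of 32 tested members were higher (4.55% of all genes tested were) and 0 were lower in edgeR's test (4.82%; 16 members passed an unadjusted p under 0.05 in either direction, and DESeq2 called 12 higher and 0 lower). In the mLN 10 were higher (5.78%) and 1 lower (5.90%), and in the PP 11 were higher (5.33%) and 1 lower (4.74%). The 1 lower in PP is H2-Q1, which passed the low-count filter only through the PP HEL pos libraries. These counts of calls shrank with fewer libraries. In spleen 5, 6 or 7 members were called without the BCL2 HEL pos library 922, the HEL pos library 392 or the BCL2 HEL pos library 950. In mLN 6 were called without the HEL pos library 392 or 399 or the BCL2 HEL pos library 926 or 950, and in PP 7 or 5 without the BCL2 HEL pos library 922 or 950. The median over the 32 tested members was 0.35, 0.34 and 0.40 on the log2 scale in spleen, mLN and PP, and over all genes tested it was -0.00, -0.01 and -0.01. These 3 comparisons share no library, though each library number recurs in all 3 tissues.

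H2-Eb2, H2-Oa, H2-DMb1, H2-Q4, H2-Q6 and H2-Q8 were called higher in all 3 tissues. That is 6 of 32 tested members (18.8%), beside 157 of 11419 genes tested (1.37%). Of the tested members, 25 had estimates above 0 in all 3 tissues (78.1%), beside 25.6% of all genes tested. All 11 tested genes of the class II pathway were among those above 0 in each tissue. The libraries of the 2 cell groups did not overlap, with BCL2 HEL pos above, for 9 of these 11 genes in spleen, 10 in mLN and 8 in PP, where 14.6%, 17.7% and 13.5% of all genes tested did the same.

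H2-Oa stood at 656, 526 and 545 CPM in spleen, 584, 596 and 551 CPM in mLN and 657, 525 and 513 CPM in PP BCL2 HEL pos cells (922, 926 and 950). In HEL pos cells (Pool, 392 and 399) H2-Oa stood at 387, 364 and 418 CPM, 362, 380 and 343 CPM, and 321, 414 and 387 CPM in the same tissues. The BCL2 HEL pos libraries were higher in every tissue, with no overlap. The fold changes were 0.58 ± 0.13, 0.68 ± 0.13 and 0.56 ± 0.13, with adjusted p-values of 0.00708, 0.00167 and 0.00902. The spleen call was lost without the BCL2 HEL pos library 922 (adjusted p = 0.0595), and the PP call without that number in PP (0.0509) or without both 399 and Pool of the PP HEL pos group (0.210).

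H2-Ob stood at 1605, 1558 and 1548 CPM in spleen, 1277, 1315 and 1261 CPM in mLN and 1503, 1350 and 1451 CPM in PP BCL2 HEL pos cells. All of these exceed the HEL pos libraries of their tissue given above. H2-Ob was higher by 0.46 ± 0.11 in spleen (adjusted p = 0.00866) and by 0.60 ± 0.11 in mLN (adjusted p = 0.00103), calls kept in every alternative. In PP the difference was 0.32 ± 0.11 (adjusted p = 0.066). H2-DMb1 differed by 0.46 ± 0.14, 0.44 ± 0.14 and 0.56 ± 0.14, called in each tissue at adjusted p-values of 0.0382, 0.0409 and 0.012, but in spleen and in mLN the call was lost when any of 5 of the 6 libraries was left out, and in PP without the BCL2 HEL pos library 950 (adjusted p = 0.0558). H2-DMa differed by 0.60 ± 0.12 in mLN (adjusted p = 0.00297) and 0.56 ± 0.12 in PP (adjusted p = 0.00702), and by 0.34 ± 0.12 in spleen (adjusted p = 0.0923).

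**Figure D5:**
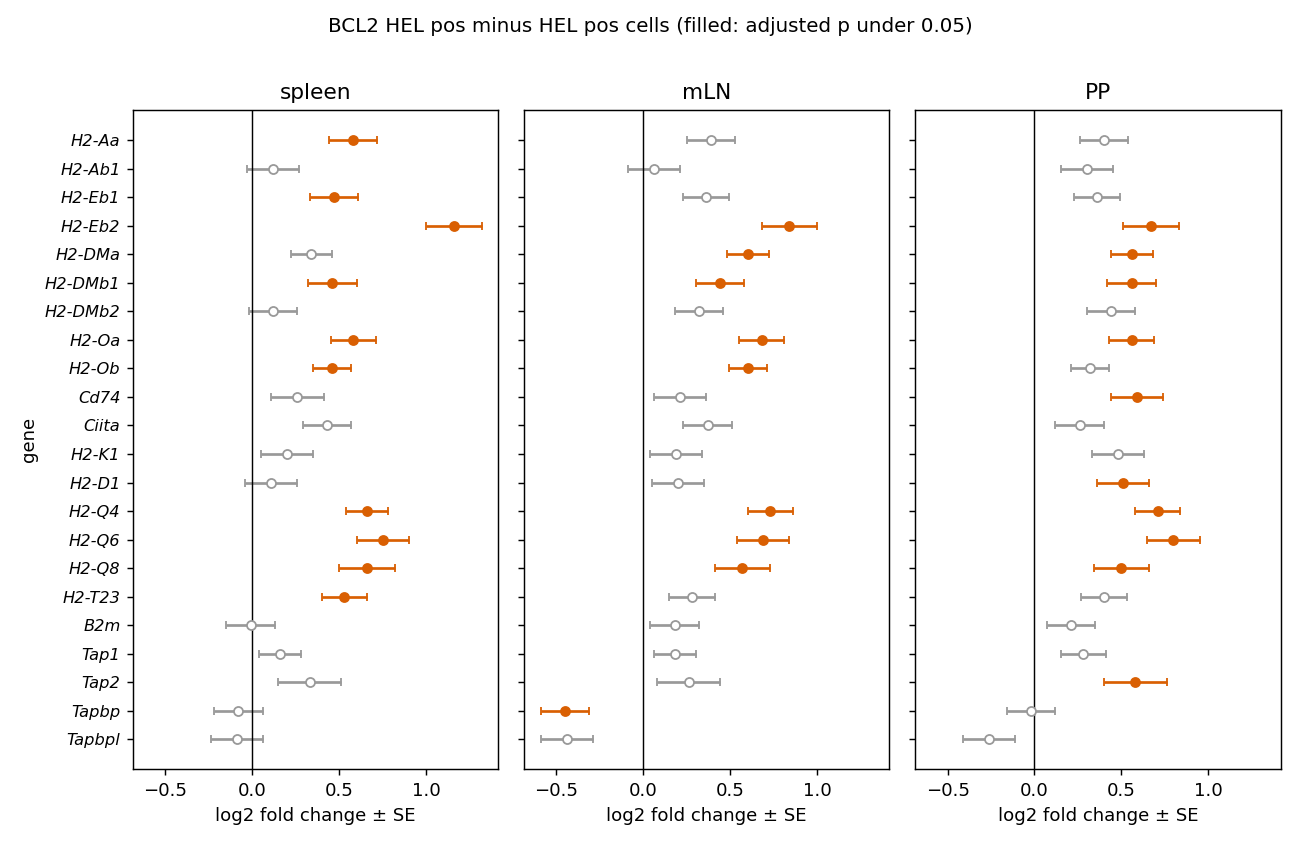
Log2 fold change of BCL2 HEL pos against HEL pos cells (x axis, with SE as bars) for 22 presentation genes (y axis) in each tissue. Filled points have an adjusted p under 0.05. The 11 class II pathway genes, from H2-Aa to Ciita, lie above 0 in all 3 tissues, while Tapbp and Tapbpl lie below.

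Of the class II chains, H2-Eb2 differed most, by 1.16 ± 0.16 in spleen (adjusted p = 0.000111), 0.84 ± 0.16 in mLN (adjusted p = 0.00158) and 0.67 ± 0.16 in PP (adjusted p = 0.0106). The PP groups overlapped, and the PP call was lost without the BCL2 HEL pos library 922 (adjusted p = 0.0597) or without both 399 and Pool of the PP HEL pos group (0.326). H2-Aa stood at 12183, 11129 and 10825 CPM in spleen BCL2 HEL pos cells, above the HEL pos libraries at 7068, 7371 and 8578 CPM. It was higher by 0.58 ± 0.14 (adjusted p = 0.00943), which became 0.51 (adjusted p = 0.0511) without the BCL2 HEL pos library 922. In mLN and PP the H2-Aa groups did not overlap either, with values of 0.39 ± 0.14 and 0.40 ± 0.14 that missed the threshold (adjusted p = 0.0675 in both). H2-Eb1 was called in spleen (0.47 ± 0.14, adjusted p = 0.0329), a call lost when any of 5 of the 6 libraries was left out. H2-Ab1 overlapped between the groups in every tissue, with values of 0.12 ± 0.15, 0.06 ± 0.15 and 0.30 ± 0.15. Cd74 was called in PP (0.59 ± 0.15, adjusted p = 0.0177), where the BCL2 HEL pos library 950 stood at 30087 CPM beside 22573 and 19370 CPM. Without that library the value was 0.39 (adjusted p = 0.0832), and without the PP HEL pos library 399 it was 0.50 (0.0963). For Ciita the values were 0.43 ± 0.14, 0.37 ± 0.14 and 0.26 ± 0.14, none called.

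Among nonclassical class I genes H2-Q4, the gene of the Qb-1 molecule, differed in every tissue. H2-Q4 stood at 105, 123 and 118 CPM in spleen, 79.2, 84.5 and 83.9 CPM in mLN and 90.2, 98.3 and 92.4 CPM in PP BCL2 HEL pos cells. In HEL pos cells it stood at 87.1, 66.8 and 66.5 CPM, 54.3, 51.7 and 44.2 CPM, and 56.6, 55.9 and 55.2 CPM. No groups overlapped within a tissue, and the fold changes were 0.66 ± 0.12, 0.73 ± 0.13 and 0.71 ± 0.13 (adjusted p = 0.00164, 0.000796 and 0.00151), kept in every alternative. H2-Q6 was higher by 0.75 ± 0.15, 0.69 ± 0.15 and 0.80 ± 0.15, and H2-Q8 by 0.66 ± 0.16, 0.57 ± 0.16 and 0.50 ± 0.16, with adjusted p-values up to 0.0488. H2-Q6 and H2-Q8 belong to a family of near-copies, so their counts may not be separate. The H2-Q8 call was lost when any of 2 single libraries was left out in spleen, 4 in mLN and 5 in PP. H2-T10 was called in spleen and mLN (0.52 ± 0.16 and 0.56 ± 0.16), H2-T23 in spleen (0.53 ± 0.13) and H2-M3 in mLN (0.45 ± 0.13), with adjusted p-values up to 0.0393, and each of these calls was lost when some single library was left out.

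The values of other class I genes, and of H2-Ke6, which encodes no MHC chain, varied with tissue in size and sign. H2-K1 and H2-D1 overlapped between the cell groups in spleen and mLN, at 0.11 to 0.20 on the log2 scale, and in PP H2-D1 was called (0.51 ± 0.15, adjusted p = 0.0358). Without the PP BCL2 HEL pos library 950, which stood at 4707 CPM beside 3388 and 3164 CPM, the H2-D1 value was 0.31 (adjusted p = 0.177). Without the PP HEL pos library 392 or 399 its adjusted p was 0.0521 or 0.129. Tap2 was called in PP (0.58 ± 0.18, adjusted p = 0.0479), where the HEL pos library 399 stood at 102 CPM beside 192 and 233 CPM, and the value was 0.31 (adjusted p = 0.161) without it. H2-Ke6 was also called in PP (0.52 ± 0.16, adjusted p = 0.036), a call lost when any of 4 libraries was left out. Tapbp was lower in mLN BCL2 HEL pos cells by -0.45 ± 0.14 (adjusted p = 0.0334), at 858, 990 and 1034 CPM against 1149, 1423 and 1385 CPM, with no overlap. That call was lost when any of 5 of the 6 libraries was left out. H2-Q1 was lower in PP BCL2 HEL pos cells by -2.95 ± 0.81 (adjusted p = 0.0248), in the libraries with the lower enterocyte sums given above, a call lost when any of 4 libraries was left out. H2-Q1 could be tested only because PP HEL pos cells were high. A lower value here was thus fixed in advance, and its p-value is no support.

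Without both 399 and Pool of the PP HEL pos group, which leaves 1 HEL pos library in that tissue, H2-Q4 was the 1 member still called of the 12 in PP. Myeloid markers, summed, stood at 32.1 to 61.2 CPM in spleen HEL pos and 16.3 to 41.1 CPM in spleen BCL2 HEL pos cells, at 14.4 to 44.3 and 15.1 to 23.1 CPM in mLN, and at 22.6 to 43.1 and 32.9 to 41.3 CPM in PP. These myeloid sums overlap between the cell groups in each tissue. T cell markers summed to 4.47 to 17.1 CPM in spleen HEL pos and 7.57 to 14.5 CPM in spleen BCL2 HEL pos cells, which overlap. In mLN they summed to 12.3 to 54.1 and 1.78 to 5.65 CPM, and in PP to 11.1 to 14.4 and 3.07 to 5.73 CPM, lower with BCL2 and without overlap. B cell genes differed in part. Ms4a1 stood at 2160, 2179 and 2079 CPM in spleen BCL2 HEL pos cells, below the HEL pos libraries given above. Cd79a, at 7287, 6731 and 6768 CPM there, was likewise below, while Cd79b and Pax5 overlapped between the cell groups in spleen. Cd79b stood at 2039, 2292 and 2017 CPM in mLN HEL pos and 3124, 3060 and 3010 CPM in mLN BCL2 HEL pos cells, without overlap. Cd79a and Pax5 were also higher with BCL2 in mLN without overlap, while Ms4a1 overlapped. In PP Ms4a1, Cd79a, Cd79b and Pax5 all overlapped. The part of these markers in the BCL2 differences was not tested.

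In the pathway list, 2 genes were higher and 3 lower with BCL2 in spleen (4.55% and 4.82% of all genes tested), and 3 higher and 5 lower in mLN (5.78% and 5.90%). In PP 1 was higher and 0 lower by edgeR's test (5.33% and 4.74%; 7 passed an unadjusted p under 0.05 in either direction). In spleen Irf1 was higher by 0.83 ± 0.17 and Irf2 by 0.54 ± 0.12, and Ifi30 was lower by -1.27 ± 0.18, Erap1 (a peptidase that trims class I peptides) by -0.53 ± 0.14 and Ctsb by -0.62 ± 0.17, with adjusted p-values up to 0.0267. In mLN Erap1 was lower by -0.68 ± 0.14, Ctsb by -0.76 ± 0.17, Calr by -0.63 ± 0.15 and Pdia3 by -0.73 ± 0.20, and the immunoproteasome subunits Psmb8 and Psmb9 were higher by 0.39 ± 0.11 and 0.36 ± 0.10, with adjusted p-values up to 0.0254. In PP Lgmn, an endosomal protease, was higher by 0.89 ± 0.21 (adjusted p = 0.00965).

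Whether the BCL2 difference itself changed with tissue was tested as an interaction. For PP against spleen 0 of 32 tested members passed edgeR's test (0.00876% of all genes tested did), with 4 members at an unadjusted p under 0.05, and DESeq2 also called 0, with 5. For mLN against spleen 0 passed (0.385% of all genes tested did), with 0 at an unadjusted p under 0.05, and DESeq2 called 0, with 2. For H2-Eb2 the PP difference minus the spleen difference was -0.49 ± 0.23 (adjusted p = 0.495). H2-T3 was higher in all BCL2 HEL pos libraries of spleen (1.41 ± 0.66) and lower in all of PP (-1.59 ± 0.61), and the difference between these was -3.00 ± 0.90 (adjusted p = 0.317). In the pathway list 1 gene was called, Ifi30, whose BCL2 difference was higher in mLN than in spleen by 1.30 ± 0.26 (adjusted p = 0.0261).

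The last comparison set HEL pos against HEL neg cells over the 3 tissues, with tissue as a covariate, since HEL neg cells have 1 pool per tissue. Of 32 tested members 0 were higher in HEL pos cells by edgeR's test (3.46% of 11406 genes tested were) and 1 was lower (5.22%), with 11 at an unadjusted p under 0.05 in either direction, and DESeq2 called 0 higher and 5 lower. The member called was H2-Eb2, lower by -0.70 ± 0.15 (adjusted p = 0.0115). The HEL neg pools stood at 261, 445 and 452 CPM in spleen, mLN and PP. In spleen and mLN all HEL pos libraries were below the pool of their tissue, and in PP the HEL pos library 392, at 492 CPM, was above it. Without the mLN HEL neg pool the value was -0.54 (adjusted p = 0.141), and with the library number as a block -0.76 (0.0880). Without the spleen HEL neg pool 6 members were called, without the spleen HEL pos Pool 3 and without the PP HEL pos library 392 2.

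Of the class II pathway, 10 of 11 tested members had estimates below 0 in this comparison, beside 5531 of 11406 genes tested, and H2-Eb2 was the 1 called. Cd74 stood at 20249, 24117 and 20590 CPM in the HEL neg pools and at 13518 to 19887 CPM in the 9 HEL pos libraries. The groups do not overlap, and the value was -0.38 ± 0.13 (adjusted p = 0.0809). Myeloid markers summed to 96.4, 72.5 and 46.2 CPM in the spleen, mLN and PP pools of HEL neg cells. In HEL pos cells they summed to 32.1 to 61.2, 14.4 to 44.3 and 22.6 to 43.1 CPM. Plasma cell markers summed to 640, 500 and 912 CPM in the pools and to 217 to 376 CPM in HEL pos cells. T cell markers were higher in the spleen and PP pools and overlapped in mLN. The part of these markers was not tested. B2m stood at 6629, 6457 and 3433 CPM in the spleen, mLN and PP pools of HEL neg cells, the PP pool being below all HEL pos libraries. In the pathway list Erap1 and Ctsb were higher in HEL pos cells by 0.84 ± 0.18 and 0.76 ± 0.18 (adjusted p = 0.0121 and 0.0195), and Psmb9 and Irf1 lower by -0.42 ± 0.11 and -0.49 ± 0.14 (adjusted p = 0.0233 and 0.046).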

How the data were processed

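Bulk RNA of sorted B cells was sequenced as single-end reads of 50 bases. The deposited values are raw read counts per gene symbol for 21 libraries. STAR, HTSeq, DESeq2 and mm10 are named in the submitters' processing notes. What each did, in which version and with which settings, is not given in the sources used here. Whether counting used strand is likewise not stated there. Members and gene lists were chosen with earlier results of these data known.

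Counts were tested as deposited with edgeR 4.0.16 (R 4.3.3; TMM scaling, filterByExpr, quasi-likelihood test, Benjamini-Hochberg over all genes tested, threshold 0.05), checked on simulated counts. HEL pos and BCL2 HEL pos groups (18 libraries) shared 1 fit, and HEL pos against HEL neg (12 libraries) used tissue as a covariate. Alternatives were DESeq2 1.42.0, DESeq2 size factors, no low-count filter, the library number as a block, and left-out libraries. Every called member may be named, and of the pathway list at most 6 called genes per comparison, by smallest adjusted p. Lengths and positions are from GENCODE M21 and promoters from RefSeq. Library totals of 5475131 to 11340876 counts put 3 counts at 0.265 to 0.548 CPM. 1 B cell marker is not reported here.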

Additional observations from a re-analysis of the deposited data

How the results depend on the processing

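Of 716 fold changes of single called members under the alternatives, 540 kept their direction and their call, 176 kept the direction and lost the call, and 0 changed direction. Of the 66 calls behind them, 22 held in every alternative and 44 were lost in 1 or more. By a mark of a 1.5-fold ratio, counts of members called moved in 39 of 147 alternative values, left-out libraries included. Counts of all genes called moved in 69 of 147. The changed member counts given here and below thus cannot be read as particular to the members. With DESeq2 the members called went from 7 to 12 for PP against spleen in HEL pos cells, from 1 to 3 and from 4 to 7 for PP and mLN against spleen in BCL2 HEL pos cells, and from 1 to 5 where HEL pos was set against HEL neg. With the library number as a block (replicate block) the counts were 12, 5 and 10 for those tissue comparisons, 2 for PP against mLN in BCL2 HEL pos cells, and 0 where HEL pos was set against HEL neg. Deviations of same-numbered libraries correlated at 0.02 to 0.31 in HEL pos cells (8 of 9 best with their own number) and 0.05 to 0.20 in BCL2 HEL pos cells (9 of 9). That is a hint from the data, not the design, that numbers may be shared. Of the correlations, 7 of 9 and 4 of 9 were over 0.1. The reported fits have no block because the labels do not say what a number marks. If numbers are shared, the tissue comparisons are paired and the reported fits leave that pairing out. No paired analysis was possible for BCL2 HEL pos against HEL pos cells because these groups share no library numbers. Without the 3 pooled HEL pos libraries 3 members were called between PP and mLN HEL pos cells. With 399 and Pool of the PP HEL pos group left out, the counts were 2 and 1 for PP against spleen and mLN in HEL pos cells and 1 for BCL2 in PP. The cause was not tested.

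Leaving out 1 library gave 5 to 10 members for PP against spleen, 8 to 14 for mLN against spleen and 2 to 6 for PP against mLN in HEL pos cells. In BCL2 HEL pos cells the same comparisons gave 1 to 2, 1 to 3 and 0 to 1. BCL2 against HEL pos gave 5 to 10 in spleen, 6 to 10 in mLN and 5 to 11 in PP, the interactions 0, and HEL pos against HEL neg 0 to 6. Where a group was left with 1 library, that library was assumed to vary like the other groups. Depth limits H2-Q1 most, whose levels outside the PP, at most 0.683 CPM, lie near those of 3 counts.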

Other observations

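The balance between the H2-A chains differed by library, a pattern seen in the values and not tested. The ratio of H2-Ab1 to H2-Aa counts was 1.13 to 1.38 in the pools, 0.958 to 1.14 in the HEL pos libraries 392 and 399, and 0.744 to 0.876 in the BCL2 HEL pos libraries other than the PP library 950, which had 1.37. That library also had the highest ratio of Cd74 to H2-Aa counts, 2.82. The other BCL2 HEL pos libraries had at most 2.04, but the pools had 1.95 to 2.81. The PP library 950 also had the highest share of counts in the 49 members, 8.90%.

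Of the 17 members that were not tested, 3 had 0 counts in all libraries and the highest count of the others was 13, for H2-M10.3 in the PP HEL pos library 399 (2.19 CPM).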
